A study of Homo sapiens with 18 samples.

Results

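ADGRF1, ADGRF5, VIPR1, KCNAB2, CNTN5, MSLN, GAS6, CPED1, SECTM1 and LAIR2 are 10 of the 21119 named genes in the count table. They were chosen on their levels in these libraries, as genes lower in every JAG1-high library than in every JAG1-low library of 3 comparisons, and 35 genes of the table met that rule. RNA was sequenced from 18 libraries of MDA-MB-231 cells, an established human triple-negative breast cancer line, grown in 3D in Matrigel for 7 days, with 3 replicates in each of 6 conditions. The parental cells are named Jag1WT. The Jag1KO cells were pooled from single-cell clones after Cas9 editing of JAG1. From the knockout, Jag1KO + rescue was made with a plasmid expressing Jagged1 and Jag1KO + ctrl with the same plasmid without insert, and both were kept under G418. siCtrl cells are parental cells transfected with a nontargeting siRNA and siJag1 cells are parental cells transfected with siRNAs against Jagged1 a few hours before seeding. Jag1WT, siCtrl and Jag1KO + rescue are named JAG1-high below, and Jag1KO, siJag1 and Jag1KO + ctrl JAG1-low. Jag1KO, Jag1KO + rescue and Jag1KO + ctrl share the edited clones, and Jag1WT, siCtrl and siJag1 share the unedited cells, so that editing and clonal origin cannot be told apart.

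Jagged1 is a membrane ligand that binds Notch receptors on a neighbouring cell. The bound receptor is cleaved, and its intracellular part joins the DNA-binding protein RBPJ and switches on targets such as HES1, which in turn is a transcriptional repressor. Notch signalling is therefore known for genes it lowers as well as for genes it raises. The members belong to several unrelated families. ADGRF1 and ADGRF5 are adhesion G protein-coupled receptors, VIPR1 is the receptor of vasoactive intestinal peptide, KCNAB2 is a cytoplasmic beta subunit of Kv1 potassium channels, CNTN5 is a GPI-anchored neural adhesion protein, and MSLN (mesothelin) is a surface glycoprotein of mesothelium and of several carcinomas. GAS6 is the secreted ligand of the receptor tyrosine kinases TYRO3, AXL and MERTK, SECTM1 is a ligand of CD7, LAIR2 is a soluble decoy of the collagen receptor LAIR1, and CPED1 encodes a protein of poorly known function with a cadherin-like domain.

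ADGRF1 and ADGRF5 are neighbours on chromosome 6 (hg38, GENCODE release 44), both on the minus strand. ADGRF5 lies at chr6:46852522-46954943 and ADGRF1 at chr6:46997708-47042350, with 42.8 kb and no annotated gene between them. The other members are spread over 8 chromosomes, from KCNAB2 on chromosome 1 (chr1:5990927-6101193) and VIPR1 on chromosome 3 (chr3:42489299-42537573) to LAIR2 on chromosome 19 (chr19:54497879-54510687). KCNAB2 overlaps NPHP4, which is on the opposite strand and had a mean of 14.7 CPM, and GAS6 overlaps GAS6-AS1, also on the opposite strand, with a mean of 1.67 CPM. VIPR1 overlaps VIPR1-AS1, also on the opposite strand, which is not among the genes counted, so its level is not known here. The libraries were prepared with a strand-specific kit. Whether the counting used strand is not given in the sources used here, so the KCNAB2, GAS6 and VIPR1 values may hold reads of these partners. LAIR2 resembles its family member LAIR1, and its count is uncertain to the extent that reads fit both.

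The 250 bases before each start of transcription in the RefSeq promoter table (GRCh38.p14) were searched on both strands. The search was for 3 strings of letters that Notch factors are known to bind, the members having been chosen as lower where JAG1 was high. The table held 14 such windows for 8 of the members and none for MSLN and LAIR2. TGGGAA, the core of the RBPJ site, was in 1 of the 14 windows, of ADGRF5, against 20.8% of 35116 windows of all genes. CACGTG, an E-box that HES proteins bind, was in 1 member window, of KCNAB2, against 6.34% of all, and CACGCG, the class C site of HES proteins, was in 3 windows, of KCNAB2 and CNTN5, against 9.72%. The strings do not overlap each other. A window of each of ADGRF5, KCNAB2 and CNTN5 that holds a string is shown, with the string in capitals, beside that of ADGRF1, which holds none and is the neighbour of ADGRF5. All 4 are written 5′ to 3′ on the strand of the gene and end at the base before the start. They lie at chr6:46921939-46922188 (minus strand), chr1:6034438-6034687 (plus), chr11:99020699-99020948 (plus) and chr6:47042333-47042582 (minus).
ADGRF5: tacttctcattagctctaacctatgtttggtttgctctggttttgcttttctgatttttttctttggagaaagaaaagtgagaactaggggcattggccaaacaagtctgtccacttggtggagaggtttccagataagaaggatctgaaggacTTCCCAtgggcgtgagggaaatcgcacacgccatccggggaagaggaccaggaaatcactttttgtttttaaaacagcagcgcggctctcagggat
KCNAB2: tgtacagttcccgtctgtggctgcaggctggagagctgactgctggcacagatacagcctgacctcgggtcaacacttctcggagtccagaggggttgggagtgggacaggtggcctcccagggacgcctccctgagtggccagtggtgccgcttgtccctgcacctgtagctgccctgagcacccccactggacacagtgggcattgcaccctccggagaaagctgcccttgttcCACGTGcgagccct
CNTN5: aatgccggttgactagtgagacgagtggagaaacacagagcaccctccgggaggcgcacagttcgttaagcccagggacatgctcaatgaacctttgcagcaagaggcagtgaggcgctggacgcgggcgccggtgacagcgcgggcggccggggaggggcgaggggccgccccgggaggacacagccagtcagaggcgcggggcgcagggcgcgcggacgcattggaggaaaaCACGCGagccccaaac
ADGRF1: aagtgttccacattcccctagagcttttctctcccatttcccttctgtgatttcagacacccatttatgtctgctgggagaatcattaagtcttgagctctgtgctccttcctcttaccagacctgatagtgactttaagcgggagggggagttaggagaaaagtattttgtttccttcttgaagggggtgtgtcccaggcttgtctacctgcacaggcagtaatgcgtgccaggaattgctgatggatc
The TTCCCA in the ADGRF5 window is TGGGAA read on the other strand, 96 bases before the start. ADGRF5 and KCNAB2 each have further starts in the table, and the counts per gene do not tell which start was used. A match is a string of letters in a window and was not tested as a binding site.

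Between 10330581 and 18327890 reads per library were counted on genes, so that the precision differed widely among the members. ADGRF5 had between 4997 and 22675 reads per library, ADGRF1 between 437 and 1407, and SECTM1 between 12 and 83. Levels between genes were compared on the RPKM scale, as CPM per kilobase of gene length. ADGRF5 was the most abundant, with a mean of 69.1 RPKM over the 9 JAG1-high and 136.6 over the 9 JAG1-low libraries. GAS6 followed with 25.8 and 39.4 RPKM and ADGRF1 with 6.02 and 12.4. KCNAB2 had 3.33 and 5.70 RPKM, LAIR2 3.27 and 9.27, and the other 5 members stayed below 2.5 RPKM in both. JAG1 itself checked the labels. It was at 513 ± 76.8 CPM in Jag1WT (SD, n = 3 as in all groups), 532 ± 92.4 in siCtrl and 612 ± 68.0 in Jag1KO + rescue, against 157 ± 45.1 in Jag1KO, 167 ± 35.7 in siJag1 and 131 ± 18.7 in Jag1KO + ctrl, with no overlap between JAG1-high and JAG1-low libraries. The cut leaves the rest of the transcript to be counted, and the plasmid cDNA adds reads to the same gene, so the JAG1 count is RNA and not working protein.

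The levels of the members are described first, in the 3 comparisons that chose them. Because the members were selected on these very differences, the sizes carry no test. All values are CPM after TMM normalization, in replicate order. In RNA of a whole culture, fewer cells expressing a gene and less RNA per cell cannot be told apart.

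**Figure D1:**
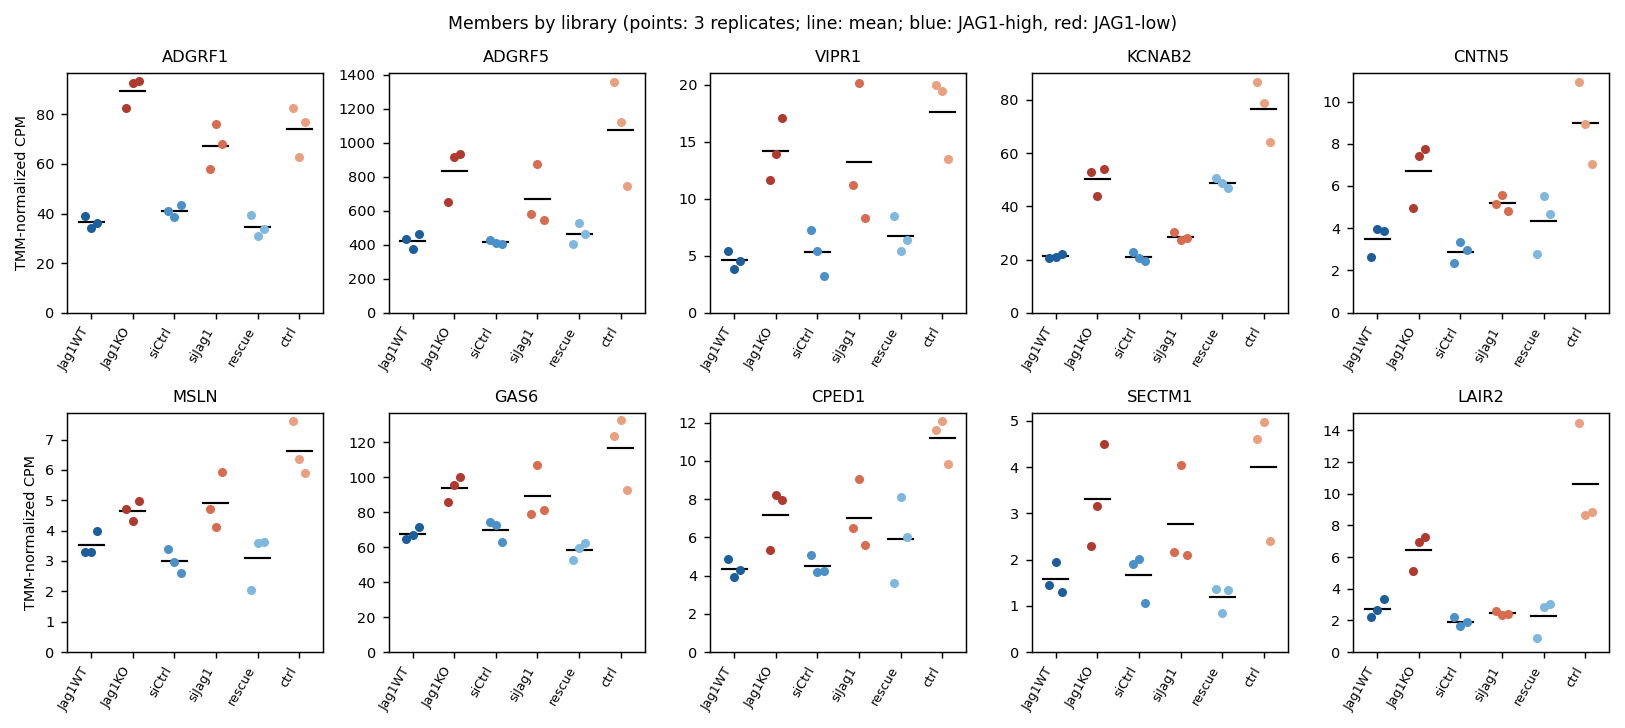
CPM of each member (y axis, from 0) in the 6 conditions (x axis; rescue and ctrl are Jag1KO + rescue and Jag1KO + ctrl); points are the 3 replicates and lines their mean, JAG1-high in blue and JAG1-low in red. In each of the 3 pairs every blue point lies below every red one, as the choice of the genes requires, while KCNAB2 in Jag1KO + rescue (46.8 to 50.8 CPM) stands well above the other JAG1-high conditions.

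ADGRF1, an orphan receptor also found to respond to a lipid amide in neurons, was at 39.1, 34.4 and 36.2 CPM in Jag1WT and 82.7, 92.5 and 93.4 in Jag1KO. It was at 41.1, 38.6 and 43.5 CPM in siCtrl and 57.9, 76.1 and 68.2 in siJag1. Jag1KO + rescue had 39.4, 30.9 and 33.8 CPM and Jag1KO + ctrl 82.6, 62.8 and 76.9. ADGRF1 was thus near 40 CPM in each JAG1-high condition, and its highest JAG1-high library, 43.5 CPM, lay below its lowest JAG1-low one, 57.9 CPM. The Jag1KO mean was 2.45 times that of Jag1WT, the siJag1 mean 1.64 times that of siCtrl and the Jag1KO + ctrl mean 2.14 times that of Jag1KO + rescue.

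ADGRF5, a receptor known from surfactant control in lung epithelium and from endothelium, was at 436, 376 and 461 CPM in Jag1WT and 651, 917 and 934 in Jag1KO. It had 427, 408 and 406 CPM in siCtrl and 579, 877 and 545 in siJag1, and 405, 528 and 460 in Jag1KO + rescue against 1359, 1122 and 744 in Jag1KO + ctrl. The JAG1-high libraries again lay close together, while the JAG1-low ones spread from 544.5 to 1359 CPM. The SD was 11.6 CPM in siCtrl and 310.2 in Jag1KO + ctrl. The ratios of the means were 1.97, 1.61 and 2.32. All 9 JAG1-high libraries of ADGRF5 lay below all 9 JAG1-low ones, by a small margin (527.9 and 544.5 CPM).

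VIPR1 showed the largest ratios of the members in the knockout and siRNA comparisons, 3.09 and 2.50, and a ratio of 2.61 with the plasmid. It was at 5.43, 3.83 and 4.57 CPM in Jag1WT and 11.7, 13.9 and 17.1 in Jag1KO. In siCtrl it had 7.28, 5.40 and 3.20 CPM and in siJag1 11.2, 20.2 and 8.32, so that the lowest siJag1 library was 1.14 times the highest siCtrl library. Jag1KO + rescue had 8.45, 5.44 and 6.39 CPM and Jag1KO + ctrl 20.0, 19.5 and 13.5. The highest of all 18 libraries for VIPR1 was siJag1 replicate 2, and without replicate 2 of both groups the siRNA ratio was 1.87.

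KCNAB2 was nearly the same in Jag1WT (20.6, 20.8 and 22.0 CPM) and siCtrl (22.7, 20.6 and 19.3). It was at 52.7, 44.03 and 54.2 CPM in Jag1KO, 30.2, 27.2 and 28.3 in siJag1 and 86.6, 78.9 and 64.1 in Jag1KO + ctrl. In Jag1KO + rescue it remained at 50.8, 48.6 and 46.8 CPM, inside the range of Jag1KO. The gene therefore met the rule within each pair although the level of its JAG1-high condition in the plasmid pair was above that of siJag1, a JAG1-low condition. The ratios of the means were 2.38, 1.37 and 1.57.

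CNTN5 and MSLN are at a few CPM. CNTN5 ranged from 2.33 to 5.51 CPM over the JAG1-high and from 4.83 to 10.9 over the JAG1-low libraries, with ratios of 1.92, 1.79 and 2.07. MSLN was at 3.282, 3.307 and 3.978 CPM in Jag1WT and 4.697, 4.325 and 4.968 in Jag1KO, the smallest ratio of any member there (1.32). Its ratio was 1.65 with the siRNAs and 2.14 with the plasmid, where Jag1KO + rescue had 2.04, 3.61 and 3.63 CPM and Jag1KO + ctrl 7.61, 6.35 and 5.90. The 9 JAG1-high libraries of MSLN, up to 3.98 CPM, all lay below the 9 JAG1-low ones, from 4.11 CPM.

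Among the secreted and immune-related members, GAS6 had the most reads. It was at 64.4, 67.2 and 71.4 CPM in Jag1WT, 74.5, 72.7 and 63.0 in siCtrl and 52.9, 59.7 and 62.2 in Jag1KO + rescue. The JAG1-low values were 86.0, 95.5 and 100.1 CPM in Jag1KO, 79.1, 107.2 and 81.2 in siJag1 and 123.7, 133.0 and 92.9 in Jag1KO + ctrl. GAS6 thus kept apart all libraries of both kinds with small ratios of 1.39, 1.27 and 2.00. SECTM1 was below 2.1 CPM in all JAG1-high libraries, between 0.848 and 2.02, and between 2.10 and 4.97 CPM in the JAG1-low ones, with ratios of 2.11, 1.66 and 3.37. LAIR2 was at 2.21, 2.63 and 3.33 CPM in Jag1WT and 5.09, 6.95 and 7.26 in Jag1KO. It had 0.886, 2.83 and 3.05 CPM in Jag1KO + rescue and 14.4, 8.63 and 8.85 in Jag1KO + ctrl, the largest ratio of any member in any pair (4.72). In the siRNA pair LAIR2 hardly differed, with 2.19, 1.62 and 1.90 CPM in siCtrl and 2.61, 2.33 and 2.38 in siJag1, a ratio of 1.28. CPED1 ranged from 3.61 to 8.13 CPM over the JAG1-high libraries and from 5.35 to 12.1 over the JAG1-low ones, with ratios of 1.64, 1.56 and 1.89.

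Over the 10 members the ratio of the means ranged from 1.32 to 3.09 (median 2.04) in Jag1WT against Jag1KO, from 1.27 to 2.50 (median 1.63) in siCtrl against siJag1 and from 1.57 to 4.72 (median 2.14) in Jag1KO + rescue against Jag1KO + ctrl.

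**Figure D2:**
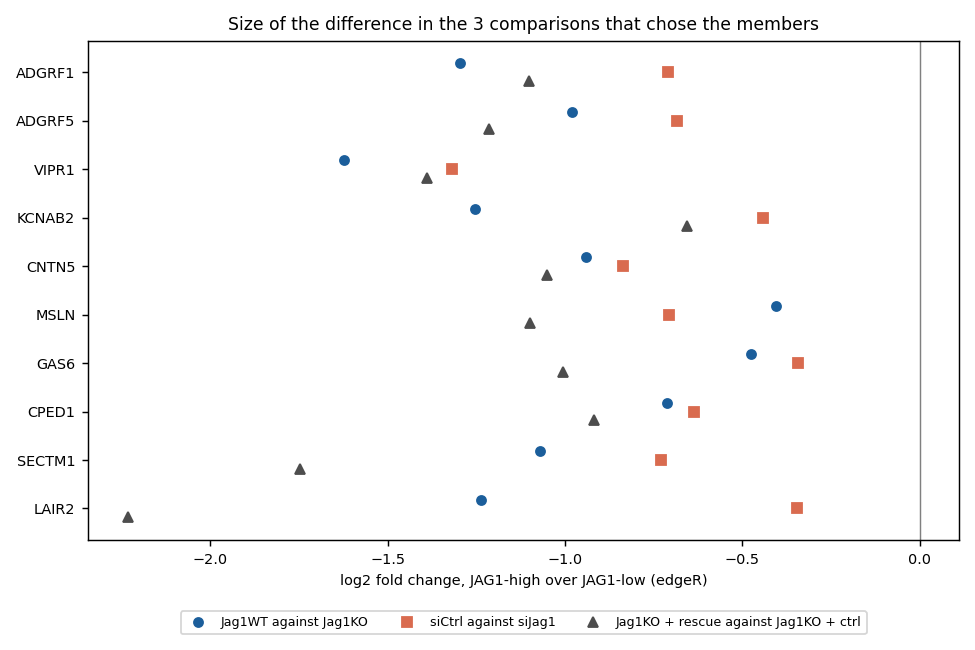
log2 fold change of each member, JAG1-high over JAG1-low, fitted with edgeR (x axis) in the 3 comparisons that chose the genes (symbols); no error or test is drawn since the genes were chosen on these differences. All points lie left of 0, between -2.23 (LAIR2 with the plasmid) and -0.34 (GAS6 with the siRNAs).

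Non-overlap of 3 against 3 libraries in that direction was common over all genes. Of the genes tested, 6.58% did not overlap and were lower in Jag1WT than in Jag1KO, 5.32% lower in siCtrl than in siJag1 and 16.0% lower in Jag1KO + rescue than in Jag1KO + ctrl, and 0.247% (31 of 12553) met all 3. With the rule as the source of the members, nothing is read from their own count. Several members met it narrowly. The 95% Poisson intervals of the highest JAG1-high and the lowest JAG1-low library, which cover counting error only, overlapped for 5 of the 10 members in the knockout pair, 8 in the siRNA pair and 3 in the plasmid pair. SECTM1 was just inside, with 2.02 CPM in the highest siCtrl and 2.10 CPM in the lowest siJag1 library, 30 reads in each. Just outside were ROBO2, an axon guidance receptor (5.02 CPM in the highest Jag1KO + rescue and 4.99 in the lowest Jag1KO + ctrl library), and PDLIM5, a cytoskeletal PDZ and LIM protein (262.2 in the highest siCtrl and 260.8 in the lowest siJag1 library).

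Besides the members, 25 genes met the rule, of which 24 were above 1 CPM on average in the JAG1-low libraries. The 10 with the largest ratio over all libraries were PGM5P3-AS1 (3.07), TSPAN7 (2.20), PGM5 (2.14), LRRC20 (1.86), AIF1L (1.76), FAT4 (1.63), NEXN (1.62), IFI44L (1.59), DTNB (1.58) and LPAR1 (1.53). PGM5P3-AS1 and PGM5 belong to a family of duplicated sequences, and their counts are uncertain for that reason. AIF1L, NEXN and PGM5 are actin-associated or adhesion-site proteins, FAT4 is an atypical cadherin, and LPAR1 is a receptor of lysophosphatidic acid. CNTNAP1, a contactin-associated protein from the list of contactin partners, also met the rule, with 37.7 ± 7.42 CPM in Jag1WT and 53.1 ± 7.76 in Jag1KO. Over all 18 libraries at once, 5 of the members, ADGRF1, ADGRF5, MSLN, GAS6 and SECTM1, had every JAG1-high library below every JAG1-low one.

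The 4 comparisons that the rule did not use were tested with the quasi-likelihood test of edgeR over all genes, and calls needed both a fold change of more than 1.5 and an adjusted p (Benjamini-Hochberg, over all genes tested) under 0.05. They use the same libraries as the rule but set conditions of like JAG1 level against each other.

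**Figure D3:**
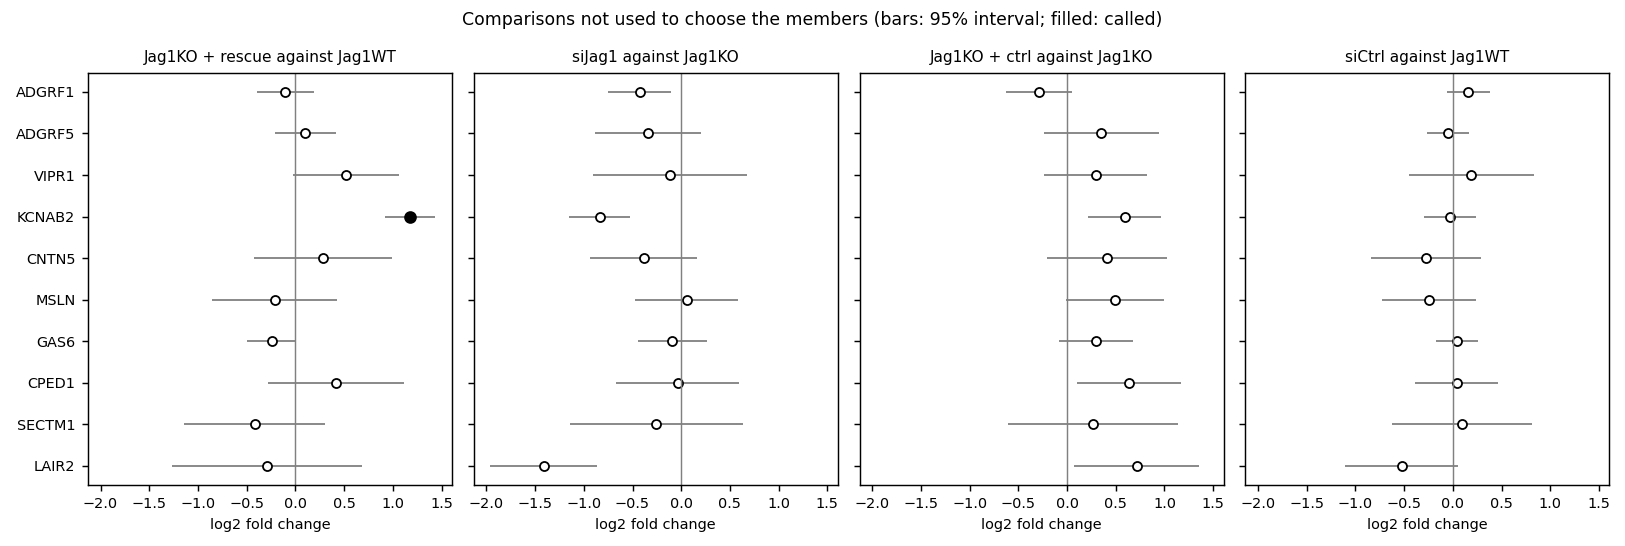
log2 fold change (x axis) of each member in the 4 comparisons that did not choose the genes, with 95% intervals from edgeR; filled points were called. The filled point is KCNAB2, at 1.18 in Jag1KO + rescue against Jag1WT.

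Jag1KO + rescue against Jag1WT asks whether cells given Jagged1 again had the parental level. Of all genes tested, 3.62% were called (463 of 12794). Of the members, KCNAB2 was called, 2.26-fold higher in Jag1KO + rescue (48.7 ± 1.97 against 21.1 ± 0.786 CPM, log2 fold change 1.18, SE 0.114, adjusted p = 0.00174 with edgeR), with all 3 rescue libraries above all 3 Jag1WT libraries. The call held under each alternative run, without each library in turn and without the libraries in which cell cycle genes were highest, with adjusted p from 1.83e-15 to 0.0204. The other 9 members were not called, at log2 fold changes between -0.42 (SECTM1) and 0.52 (VIPR1), and the 95% interval spanned 0 in each. For ADGRF1 it ran from -0.40 to 0.19, for ADGRF5 from -0.21 to 0.41 and for GAS6 from -0.49 to 0.01, so that a difference of 1.5-fold lay outside these 3 intervals. For LAIR2 (-1.27 to 0.68), SECTM1 (-1.14 to 0.31), VIPR1 (-0.02 to 1.06) and CPED1 (-0.28 to 1.11) it lay inside, as it did for CNTN5 and MSLN, and was not detectable there at 12 to 124 reads per library. With the replicate number as a block, since the numbers paired the libraries here, 1347 genes were called and KCNAB2 was again the only member among them.

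siJag1 against Jag1KO sets transient knockdown beside the stable knockout, at like JAG1 counts (167 and 157 CPM). Of all genes, 0.07% were called by edgeR (9 of 12848), and none of the 10 members. At an unadjusted p below 0.05 with edgeR were 608 of the 12848 genes and 3 of the members. DESeq2 called 74 genes, 2 of them members, and edgeR over all 18 libraries 58 genes, 1 of them a member. Of the 10, 9 had a lower mean fitted level in siJag1, with a median log2 difference of -0.30 against 0.00 over all genes tested. LAIR2 was at -1.41 (95% interval -1.96 to -0.87, 2.44 against 6.43 CPM, adjusted p = 0.143 with edgeR) and KCNAB2 at -0.84 (-1.15 to -0.53, 28.5 against 50.3 CPM, adjusted p = 0.129), each with all 3 siJag1 libraries below all 3 Jag1KO libraries. DESeq2 called both, with adjusted p = 0.00198 for LAIR2 and 0.000128 for KCNAB2, and edgeR over all 18 libraries called KCNAB2 (adjusted p = 0.00194). Over the alternatives run, the adjusted p ranged from 0.00198 to 0.708 for LAIR2 and from 0.000128 to 0.698 for KCNAB2. ADGRF1 was at -0.43 (-0.75 to -0.10, adjusted p = 0.910 with edgeR). GAS6 was at -0.09 with an interval of -0.45 to 0.27, whereas those of CPED1 (-0.66 to 0.59) and SECTM1 (-1.15 to 0.64) left room for a difference of 1.5-fold either way. The siJag1 cells had not been cloned and the Jag1KO cells had received no siRNA, which cannot be told apart from the way JAG1 was lowered.

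Jag1KO + ctrl against Jag1KO compares both JAG1-low conditions of the knockout background. No gene was called by edgeR (percent called 0.0, with 752 of 12956 at an unadjusted p below 0.05, none by limma and 13 by DESeq2). Of the members, 9 had a higher fitted level in Jag1KO + ctrl and ADGRF1 a lower one (-0.29), with a median of 0.38 against -0.01 over all genes, and 3 had an unadjusted p below 0.05. These were KCNAB2 (0.59, interval 0.21 to 0.97), CPED1 (0.63, 0.10 to 1.17) and LAIR2 (0.71, 0.07 to 1.36), each at an adjusted p of 0.758 with edgeR. None of the 10 was called by DESeq2, limma or any other alternative run, also without Jag1KO + ctrl replicate 3, when 343 genes were called.

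siCtrl against Jag1WT sets transfected beside untransfected parental cells, and the transfection and the nontargeting siRNA cannot be told apart in it. No gene was called by edgeR (percent called 0.0, 178 of 12797 at an unadjusted p below 0.05, none by limma or DESeq2, 1 with the replicate block). Of the members, 5 were higher and 5 lower in siCtrl, with a median log2 difference of 0.01, and none had an unadjusted p below 0.05. ADGRF1 (0.16, interval -0.06 to 0.38), ADGRF5 (-0.05, -0.26 to 0.17), KCNAB2 (-0.03, -0.29 to 0.24) and GAS6 (0.04, -0.17 to 0.26) had intervals within 1.5-fold, whereas that of LAIR2 ran from -1.10 to 0.05.

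In the order of the 6 conditions by mean, the rule set each JAG1-low condition above its JAG1-high partner in every member. The rest of the order was free and varied in part. siJag1 stood below Jag1KO + rescue in KCNAB2, below Jag1WT in LAIR2 and above Jag1KO in MSLN. Jag1KO + ctrl had the highest mean in 9 of the 10 and Jag1KO in ADGRF1, and the lowest mean was in siCtrl for 5 members, in Jag1KO + rescue for 3 and in Jag1WT for 2. Neighbours in this order overlapped in most cases. In VIPR1 and CNTN5 all 5 pairs of neighbours did, in KCNAB2 only Jag1KO with Jag1KO + rescue and Jag1WT with siCtrl. ADGRF1, GAS6 and LAIR2 had 3 overlapping pairs of neighbours, and the other members 4.

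Within conditions the members also differed between replicates, and their relation to the level of cell cycle genes was not alike in all conditions. The mean of the 97 S and G2/M genes shipped with Seurat varied from 4.10 to 6.09 on the log2(CPM + 1) scale between libraries. In Jag1KO it was 4.11, 5.55 and 5.67, and 9 of the 10 members were highest in replicate 3, the library with the highest cell cycle level, where 25.7% of all genes were highest, and 8 were lowest in replicate 1, against 41.3% of all genes. In Jag1KO + ctrl 8 were lowest in replicate 3, the library with the lowest cell cycle level (4.41), against 43.6%, but 3 were highest in replicate 2, the library with the highest (6.09), against 33.1%. In siJag1 7 were highest in replicate 2 (6.07), against 40.8%, but 2 were lowest in replicate 1, the library with the lowest level (4.32), against 24.5%. In the JAG1-high conditions 2 or 3 of the 10 were highest in the library with the highest cell cycle level (37.1%, 35.6% and 41.1% of all genes in Jag1WT, Jag1KO + rescue and siCtrl), and 1, 6 and 1 were lowest in the library with the lowest (31.9%, 40.3% and 36.3%). In these 3 conditions 5, 4 and 7 of the 10 were instead highest in the library with the lowest cell cycle level. In Jag1KO, Jag1KO + ctrl and siJag1 it was 0, 0 and 2. The share of all genes was not counted for these. When the 8 libraries above 4.7 were left out, which was chosen after the values were seen and leaves 1 or 2 libraries in a group, the order of the members was fixed by the rule and only the size could change. The median ratio was then 1.59 in place of 2.04 in the knockout pair, 1.41 in place of 1.63 in the siRNA pair and 1.85 in place of 2.14 in the plasmid pair. The part of cell growth in these levels was not tested.

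The mean standardised level of the 10 members over the 18 libraries was compared with each of 12747 genes, as a description, since the 18 points share 6 conditions, their libraries and their cell cycle level. Genes most like it included PHACTR2 (Pearson r = 0.913), a regulator of actin and protein phosphatase, TRPV4 (0.911), a calcium-permeable channel, and KIR3DX1 (0.901). JAG1 was at r = -0.859. The gene at the other end of the list was HES1, named here after its value was seen, at r = -0.956, below that of JAG1. The rule made the members low where JAG1 was high in these same libraries. A negative r with JAG1, and with genes that rise with it, therefore follows in part from the choice, and control of the members by HES1 was not tested. HES1 was at 15.6 ± 5.88 CPM in Jag1WT, 13.3 ± 0.604 in siCtrl and 12.4 ± 9.03 in Jag1KO + rescue, and at 1.90 ± 1.58 in Jag1KO, 4.42 ± 1.10 in siJag1 and 0.881 ± 0.777 in Jag1KO + ctrl. It was not called in the knockout, siRNA or plasmid comparison (adjusted p = 0.0506, 0.116 and 0.104 with edgeR). Other Notch targets did not all move as HES1 did. HEY1 was at 8.25 and 7.51 CPM in Jag1WT and Jag1KO, 7.86 and 6.09 in siCtrl and siJag1, and 7.97 and 5.79 in Jag1KO + rescue and Jag1KO + ctrl. HES6 was at 1.41 and 2.31 CPM, 1.71 and 1.10, and 0.979 and 1.88 in the same order.

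**Figure D4:**
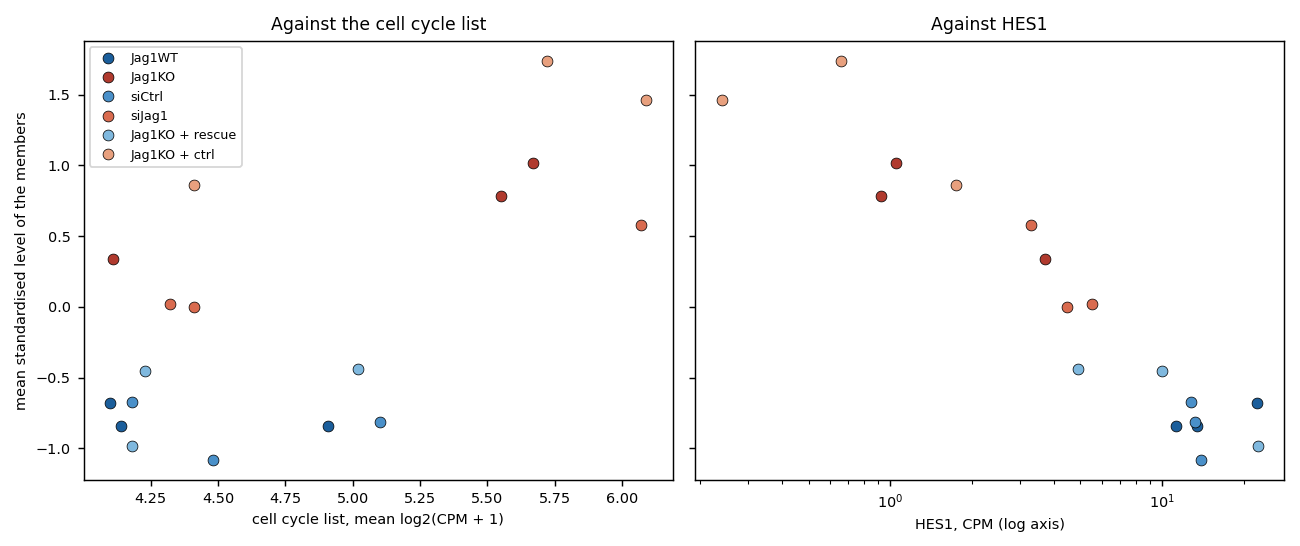
Mean standardised level of the 10 members (y axis) in each library against the mean of the cell cycle list (left, log2(CPM + 1)) and against HES1 (right, CPM on a log axis), coloured by condition. With members chosen for it, JAG1-low libraries lie above JAG1-high ones at like cell cycle levels, and the libraries with the least HES1, Jag1KO + ctrl replicates 1 and 2 (0.659 and 0.240 CPM), have the highest member levels (1.74 and 1.46).

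Among the members themselves the correlation over the 18 libraries had a median of 0.798 over 45 pairs. The rule made all members low in the same conditions, so positive correlations follow from the choice and are no sign of shared control. It was highest for GAS6 with SECTM1 (0.940) and lowest for KCNAB2 with SECTM1 (0.506), and the 3 pairs next to the lowest also held KCNAB2.

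Few other genes of the members' families were called. Of the 30 other adhesion receptors, 14 were tested in Jag1WT against Jag1KO, where 0.707% of all genes were called (91 of 12879). CELSR1, a cadherin of planar cell polarity, was called as higher in Jag1WT, opposite to ADGRF1 and ADGRF5, at 5.37 ± 0.340 against 0.589 ± 0.379 CPM (log2 fold change 3.16, adjusted p = 0.0185 with edgeR). It remained at 0.574 ± 0.215 CPM in Jag1KO + rescue and was 4.36 ± 0.417 in siCtrl and 3.03 ± 1.33 in siJag1, and was called in Jag1KO + rescue against Jag1WT (-3.25, adjusted p = 0.00161 with edgeR). The knockout call of CELSR1, like that of JAG1 there (1.71, adjusted p = 0.0136 with edgeR), was lost whichever Jag1WT library was left out, and without Jag1KO replicate 3 (adjusted p up to 0.125 and 0.130). ADGRF4, which lies further along chromosome 6, had 2.77 ± 0.0915 CPM in Jag1WT and 1.64 ± 0.472 in Jag1KO and was not called.

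The 3 GAS6 receptors were present and none was called in any of the 7 comparisons. The group means were 1047 to 1311 CPM for AXL, 42.8 to 60.6 for MERTK and 7.97 to 11.5 for TYRO3. PROS1, the other ligand of these receptors, and GGCX and VKORC1 of the vitamin K cycle, through which GAS6 is carboxylated, were not called either. The Kv1 pore subunits that KCNAB2 binds were not tested, since none reached the filter, and KCNAB3, another beta subunit, was not called. Of the other genes of the VIP and secretin family 3 were tested and none called, VIP itself having 1.42 to 3.55 CPM in the group means. CD7, the receptor of SECTM1, was at most 0.141 CPM in a library, MUC16, the ligand of mesothelin, at most 0.0955 and LAIR1 at most 1.86, and none was tested.

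Of the 16 other contactin genes and partners up to 5 were tested. NRCAM, a neural adhesion protein, was called in Jag1KO + rescue against Jag1WT (2.86 ± 0.395 against 0.583 ± 0.184 CPM, log2 fold change 2.25, adjusted p = 0.0111 with edgeR). The call was lost without Jag1WT replicate 2 or 3 or Jag1KO + rescue replicate 3 (adjusted p up to 0.0774). None was called in the siRNA comparison, where 0.0157% of all genes were (2 of 12774), or with the plasmid, where JAG1 was the single gene called (0.00778% of 12850, log2 fold change 2.22, adjusted p = 0.0227 with edgeR, lost whichever Jag1KO + rescue library was left out, and without Jag1KO + ctrl replicate 1 or 2, adjusted p up to 0.242). JAG1 was not called in the siRNA comparison (1.68, adjusted p = 0.103 with edgeR, without the replicate block).

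Markers of other cell types, several of which are known to express members, were read in the same libraries. Of the T and NK cell markers and B cell markers none was above 1 CPM in any library, with summed levels up to 1.01 and 0.293 CPM. The summed level of the 5 myeloid markers was 1.43 to 8.15 CPM, overlapping between Jag1WT (3.79 to 5.86) and Jag1KO (4.04 to 6.69) and between siCtrl (4.42 to 6.21) and siJag1 (2.87 to 7.25). In the plasmid pair it moved with the members and did not overlap, at 1.43 to 3.25 CPM in Jag1KO + rescue and 5.90 to 8.15 in Jag1KO + ctrl. The summed level of the 5 endothelial markers moved with the members without overlap in the knockout pair (13.8 to 14.5 CPM in Jag1WT and 15.4 to 19.5 in Jag1KO) and the siRNA pair (12.6 to 13.7 in siCtrl and 18.1 to 19.4 in siJag1), and overlapped in the plasmid pair (17.9 to 20.2 in Jag1KO + rescue and 18.2 to 23.5 in Jag1KO + ctrl). This endothelial sum was mostly KDR and PECAM1, which did not move alike. KDR was at 6.85 CPM in Jag1WT and 12.1 in Jag1KO, PECAM1 at 6.59 and 4.07. In siCtrl and siJag1 KDR had 6.83 and 11.8 CPM and PECAM1 5.69 and 6.19. In Jag1KO + rescue and Jag1KO + ctrl KDR had 15.8 and 9.97 CPM, against the direction of the members, and PECAM1 2.41 and 10.6. The part of cells of other types in the members' levels was not tested. KDR, a VEGF receptor of that list, was called in Jag1KO + rescue against Jag1WT (15.8 ± 2.01 against 6.85 ± 1.29 CPM, log2 fold change 1.17, adjusted p = 0.0184 with edgeR), a call lost without Jag1WT replicate 2 or 3 or Jag1KO + rescue replicate 3 (adjusted p up to 0.119). CDH5, the defining endothelial cadherin, was at most 0.0955 CPM in any library. The fibroblast markers summed to 3.12 to 10.9 CPM, overlapping in the knockout pair (5.43 to 9.40 and 4.57 to 8.26), the siRNA pair (6.15 to 10.9 and 3.12 to 7.14) and the plasmid pair (6.61 to 10.5 and 5.28 to 6.74). Of the line's own markers, VIM (2948 to 4345 CPM in the group means), CD44 and KRT18 were present, and ESR1, the estrogen receptor that triple-negative cells lack, was at most 0.136 CPM.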

How the data were processed

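RNA of 18 libraries, 3 in each of 6 conditions, was measured. The authors aligned stranded mRNA reads to hg38 and counted uniquely mapped reads per gene (featureCounts, R 3.6.1 and edgeR 3.28.0 in the submitters' processing notes, with MultiQC 1.5), and the aligner is not given in the sources used here. The counts were used as deposited, whole and unnormalized, and the deposited CPM, a signal scaled by the authors with TMM factors, need not sum to the same total. The deposited RPKM, served for gene lengths only, leaving out 3 columns whose names fit no label. Depth was 10330581 to 18327890 reads, and the 292 rows without a symbol, up to 0.0442% of the counts, were left out.

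Counts were tested in R 4.3.3 with the quasi-likelihood test of edgeR (version 4.0.16, TMM, a filter of 3 or more of the 6 libraries above 1 CPM, FDR below 0.05 and fold change above 1.5), after a check on simulated data. The authors' test, ROTS, was not run. limma (3.58.1) on log2(CPM + 1), DESeq2 (1.42.0), its size factors, no filter, a replicate block, all 18 libraries and leaving out each library were alternatives. The genes and gene lists were chosen with earlier results of these data known. The genes named are the 10 members and JAG1, up to 6 called genes of each list, up to 10 others that met the rule above 1 CPM, by ratio, and the 5 most like the members' mean profile, some of which are not reported here. Replicate numbers are those of the labels, which name biological replicates, as the authors do. The labels do not say whether a number shared across groups marks a batch or day. The p-values measure the spread between these libraries. Deviations of same-numbered libraries correlated in all 3 pairs for siCtrl and siJag1 (0.543, 0.522 and 0.264), siCtrl and Jag1WT (0.595, 0.713 and 0.21) and Jag1KO + rescue and Jag1WT (0.542, 0.603 and 0.37), and the number of genes called with the block is given there. Intervals and adjusted p of single genes are from the fit without the block, apart from ranges over the alternatives. In the 18 replicate pairs chi-square per degree of freedom was 7.42 to 108, so no library repeats another.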

Additional observations from a re-analysis of the deposited data

Results flagged for a closer look

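NRCAM, a neural adhesion protein of the contactin partner list, separated its groups in opposite directions in 2 of the comparisons that lower JAG1. It was lower in every Jag1WT than in every Jag1KO library (log2 fold change -1.33) and higher in every Jag1KO + rescue than in every Jag1KO + ctrl library (1.26), at group means between 0.583 and 2.86 CPM. The difference between these effects was not tested.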

How the results depend on the processing

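The sign of the members in the 3 comparisons that chose them is fixed by that choice and is no sign of stability. Their calls in the other 4 changed only in siJag1 against Jag1KO, where DESeq2 called 2 members and the fit over all 18 libraries 1. The count of genes called over the whole table moved far more. In Jag1WT against Jag1KO it was 91, 235 with DESeq2, 171 without the filter, 316 with the replicate block, 148 with all 18 libraries and 12 to 862 without 1 library, highest without Jag1KO replicate 1. In siCtrl against siJag1 it was 2, 0 with limma, 24 with DESeq2, 8 without the filter, 4 with the replicate block, 7 with all 18 libraries and 0 to 11 without 1 library. In Jag1KO + rescue against Jag1KO + ctrl it was 1, 2 with limma, 1583 with DESeq2, 33 without the filter, 4 with the replicate block, 2135 with all 18 libraries and 0 to 3699 without 1 library, highest without Jag1KO + ctrl replicate 3. In Jag1KO + ctrl against Jag1KO it was 0, 13 with DESeq2, 1 with all 18 libraries and 0 to 343 without 1 library, highest without Jag1KO + ctrl replicate 3. In siCtrl against Jag1WT the replicate block gave 1 in place of 0. In siJag1 against Jag1KO it was 9, 74 with DESeq2, 31 without the filter, 25 with the replicate block, 58 with all 18 libraries and 0 to 4 without 1 library. In Jag1KO + rescue against Jag1WT it was 463, 875 with DESeq2, 700 without the filter, 1347 with the replicate block, 987 without the libraries with a high cell cycle list and 64 to 1295 without 1 library. The cause of these shifts was not tested. The replicate block changed no call of a member. Where the numbers do not pair the libraries it is an alternative only.

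The number of genes that met the rule was 35 without TMM factors, 33 with the filter of 1 CPM in 9 libraries and 35 to 61 without 1 library, most without Jag1KO replicate 1, which can only add genes since fewer libraries are compared, and the members meet it without any library by construction. Leaving out 1 library turned the sign of 13 of the log2 fold changes given here, all of members in the comparisons that did not choose them and none of them called. In siCtrl against Jag1WT the ranges were -0.126 to 0.0253 for ADGRF5, -0.105 to 0.445 for VIPR1, -0.0915 to 0.0223 for KCNAB2, -0.00416 to 0.111 for GAS6, -0.0557 to 0.121 for CPED1 and -0.0695 to 0.322 for SECTM1. In siJag1 against Jag1KO they were -0.562 to 0.13 for VIPR1, -0.100 to 0.164 for MSLN, -0.266 to 0.102 for CPED1 and -0.648 to 0.0204 for SECTM1. In Jag1KO + rescue against Jag1WT they were -0.0104 to 0.204 for ADGRF5, -0.34 to 0.021 for MSLN and -0.572 to 0.0932 for LAIR2, and ADGRF5 was at -0.0880 without the libraries with a high cell cycle list. Counts of 12 to 202 reads limit SECTM1, CNTN5, MSLN and CPED1.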
